A study of Mus musculus with 12 samples.

Results

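The translation initiation and elongation factors were taken as the protein-coding genes of Gencode vM1 whose symbol starts with Eif or Eef and whose raw count averaged 10 or more over the 12 libraries. Of 68 such genes by symbol, 65 reached that level, out of 37310 genes in the files. The mean count chose them, so their being expressed is not a result, while the differences between groups were not used in the choice. Outside the limit were Eif4e1b with a mean of 0.333 counts, Eif4ebp3 with 0.167 and a second annotated Eef2k entry with 0. Just inside it were Eif4ebp1 with 15.3, Eif4ebp2 with 38.2 and Eif2s3y with 41.3. All 65 also passed the expression filter of every comparison. Of these genes, 4 (Eif2c1 to Eif2c4) carry the older symbols of the Argonaute genes, whose proteins bind small RNAs and are not translation factors, and they are given separately.

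All mice were C57BL/6 and carried the Rosa26 eGFP/L10a allele, which makes a GFP-tagged ribosomal protein once Cre has acted, and all received retrograde HSV-hEf1α-Cre in the nucleus accumbens (NAc) 3 weeks before tissue was taken. WT mice had an intact FosB gene, and KO mice were FosB fl/fl, in which the same Cre was meant to delete FosB in the cells that took up the virus. Tissue punches of ventral hippocampus (vHPC) were pooled, with 3 mice per pool in the labels and 3 to 4 in the methods, and each of 3 WT and 3 KO pools gave a TRAP library (RNA bound to tagged ribosomes of vHPC-NAc neurons) and an input library (RNA of the whole punch). The age of these mice is not given in the sources used here, there was no WT group without Cre, and Cre acted in all cells that project to NAc, not only in those of vHPC. In punches, fewer cells of a type and less RNA per cell cannot be told apart.

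Translation starts when eIF2 brings the initiator tRNA to the small ribosomal subunit and eIF4F (the cap-binding eIF4E, the scaffold eIF4G and the helicase eIF4A) brings that subunit to the capped end of an mRNA. eIF3 holds the assembly together, eIF1, eIF1A and eIF5 guide the choice of the start codon, and then eEF1A delivers each aminoacyl-tRNA and eEF2 moves the ribosome on. In neurons these steps are controlled by kinases of eIF2α, by 4E-BP proteins that sequester eIF4E and by the kinase of eEF2, and such control is known for its part in synaptic plasticity and stress responses.

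Counts on genes ranged from 3416030 to 5614089 per library, so that 3 counts equalled 0.534 to 0.878 CPM (the count of a gene scaled to a common library total). Fosb, the targeted gene, was at 32.0 to 45.3 CPM in WT TRAP and 18.8 to 29.4 CPM in KO TRAP, and at 22.3 to 30.3 CPM in WT input and 14.9 to 17.1 CPM in KO input, without overlap between genotypes. KO TRAP was thus lower than WT TRAP but above KO input, and since the counts cover the whole gene and not the deleted part alone, they do not show the deletion itself in the purified cells. The WT input library 1 stood apart, with 15678 genes that had counts against 17255 to 18090 in the other inputs. In TRAP, all 6 astrocyte, all 6 oligodendrocyte and all 6 microglial markers were called lower than in input by edgeR, and 4 of 5 general neuronal markers were called higher. All 5 markers of GABA neurons had lower means in TRAP, 4 of them called and Sst not, and their sum stood apart in KO TRAP library 2, at 566 CPM against 139 and 147 CPM in the other KO TRAP libraries and 224 to 323 CPM in WT TRAP. The summed astrocyte markers were at 239 to 323 CPM in TRAP and 1504 to 1898 CPM in input, and the lowest, median and highest summed microglial markers of the WT libraries were 3.06, 6.66 and 13.7 CPM in TRAP and 63.2, 93.0 and 100.4 CPM in input. Their part in the differences between TRAP and input was not tested.

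Levels were compared between genes only per length, as CPM per kilobase of exon (RPKM). The elongation factor Eef1a2 had the highest counted level of all 65 genes in every group, with 1015 ± 71.3 RPKM (SD, n = 3) in WT TRAP and 954 ± 88.9 in KO TRAP, against 671 ± 18.3 in WT input and 633 ± 15.2 in KO input. Eef1a1, its close relative, followed with 333 ± 12.5 RPKM in WT TRAP, and Eef2 with 243 ± 18.5 RPKM. The eIF3 subunits Eif3g (199 ± 25.1 RPKM) and Eif3c (185 ± 12.1 RPKM) were next and did not differ beyond their spread. At the other end, Eif2c4 was at 1.47 ± 0.476 RPKM in WT TRAP, Eif4ebp2 at 2.18 ± 0.0798 RPKM and Eif2s3y, the Y-linked copy of the eIF2γ gene, at 2.26 ± 0.465 RPKM. Together the 65 genes took 1.15% to 1.21% of the counts in TRAP and 0.995% to 1.04% in input. Genes of the mitochondrial genome, part of the same totals, took 0.0305% to 0.130% of counts in TRAP and 5.29% to 9.05% in input.

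Many translation factor genes have processed copies elsewhere in the genome, and reads that aligned at more than 1 place were left out of the counts. Of 75-base stretches of exon, the share that matched another place in mm9 with up to 2 mismatches was 94.1% for Eif2s3x, 85.5% for Eif3j, 59.4% for Eif3e, 56.8% for Eef1a1 and 51.0% for Eif4e. The level per length of such genes can therefore be too low. The share was 0% for Eef1a2, Eif3g, Eif4g1, Eif4h and Eif4e3. Opposite-strand exons covered 32.7% of Eif3d, 19.0% of Eif3j and 15.9% of Eif5b, and since the strand setting of the counting was not given, reads of these genes and their partners cannot be told apart. On the same strand, 24.9% of the exon length of Eef2k is shared with the second Eef2k entry, where reads can be set aside as ambiguous.

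The first comparison asked which of these mRNAs were more or less abundant on tagged ribosomes than in the tissue. In TRAP against input over both genotypes, 24 of the 65 genes were higher in TRAP, 8 were lower and 33 were not called (edgeR quasi-likelihood test, Benjamini-Hochberg adjusted p under 0.05). Over all 13214 genes tested, 42.2% were called, 19.6% higher and 22.5% lower, and the median log2 ratio was -0.01 for all genes and 0.13 for the 65. Without KO pool 2, 21 genes were higher and 5 lower, where 2275 and 2608 of 13522 genes were. Without KO pool 4 they were 20 and 5, where 2316 and 2428 of 13551 were. With all pools, 2596 of the 13214 genes were higher and 2976 lower. With the genes of the mitochondrial genome left out, 22 of the 65 genes were higher and 8 lower, where 2560 and 3014 of 13183 were. The log2 ratios ran from 0.59 for Eef1a2 to -1.55 for Eif4ebp2. In 21 of the 65 genes the TRAP library exceeded its own input in all 6 pools, and in 5 genes it was below it in all 6, where 18.2% and 20.4% of all genes did so. The 6 TRAP libraries lay entirely above the 6 inputs in 8 genes and entirely below in 3, where 9.88% and 12.6% of all genes did so. Without WT pool 1, which holds the input that stood apart, these counts were 14 and 4, where 12.7% and 15.9% of all genes did so. Among the 41 genes with under 10% of shared stretches, 15 were higher and 5 lower.

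**Figure D1:**
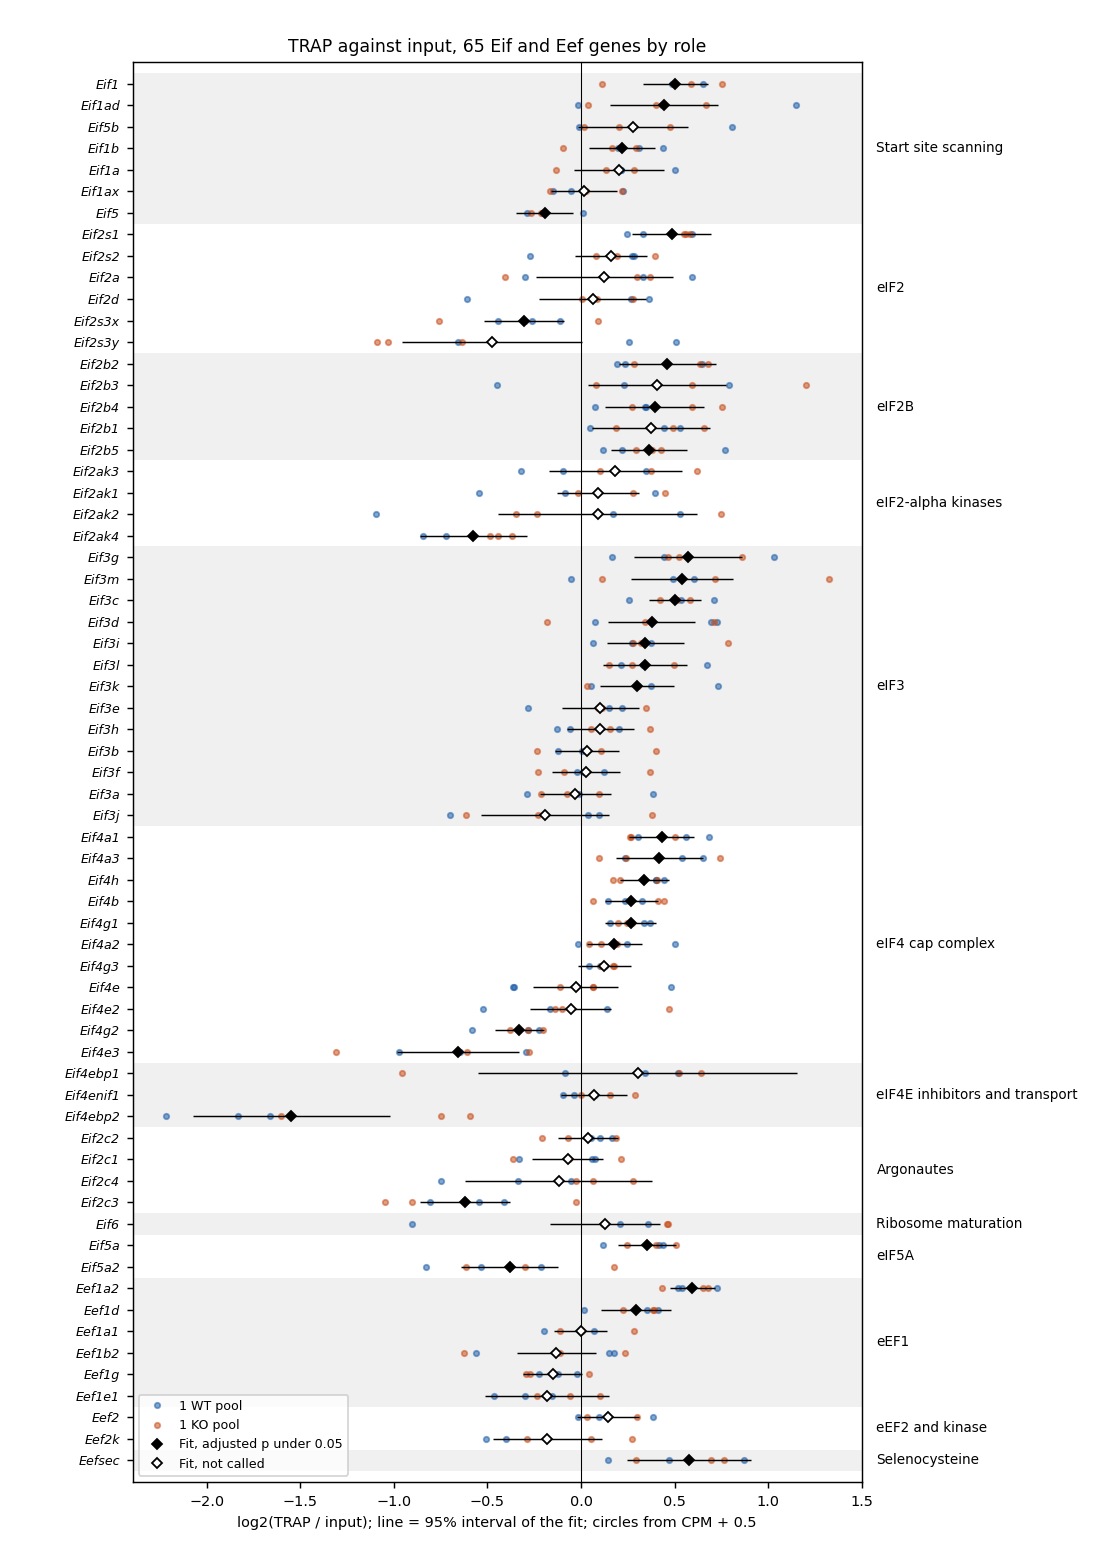
The log2 ratio of TRAP to input (x axis) of the 65 genes (y axis), grouped by role, with Eif2a, Eif2d and Eif1ad placed by their symbols. Diamonds are the fit over both genotypes with its 95% interval, filled where the adjusted p was under 0.05, and circles are the 6 pools, computed from CPM + 0.5. Most genes of eIF3, eIF2B and the cap complex lie right of 0, and Eif4ebp2 lies farthest left at -1.55.

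Of the 13 eIF3 subunits in the plot of ratios by role, 7 were higher and none was lower, with a median of 0.30. Eif3c, a core subunit, was at 500, 569 and 534 CPM in WT TRAP and at 495, 502 and 489 CPM in KO TRAP. In input it was at 418, 347 and 368 CPM in WT and at 331, 375 and 342 CPM in KO. Every TRAP library was above every input, and the log2 ratio was 0.50 ± 0.07 (SE, adjusted p = 7.6e-07 by edgeR). Eif3g (0.57 ± 0.13, adjusted p = 0.0031 by edgeR) and Eif3m (0.54 ± 0.13, adjusted p = 0.0017 by edgeR) had the largest ratios of the complex. Eif3m was higher in 5 of 6 pools, from -0.06 to 1.32, so its pools differed widely. Eif3a, the largest subunit, was at -0.03 ± 0.09, and Eif3b, Eif3e, Eif3f, Eif3h and Eif3j were likewise not called, so the call did not cover the whole complex. The calls of Eif3d, Eif3k and Eif3l were each lost when 1 pool was left out: Eif3d without WT pool 3 or KO pool 4, Eif3k without WT pool 2 or KO pool 2, and Eif3l without KO pool 3.

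All 5 subunits of eIF2B, which reloads eIF2 with GTP, had positive ratios from 0.36 to 0.46. Eif2b2, Eif2b4 and Eif2b5 were called, while Eif2b1 (0.37, adjusted p = 0.052 by edgeR) and Eif2b3 (0.40, adjusted p = 0.073 by edgeR) were not. Eif2b1 was called when the pool was kept as a block, and the call of Eif2b4 was lost without WT pool 3 (0.37) or KO pool 4 (0.36). In eIF2 itself, Eif2s1, the α subunit that the stress kinases phosphorylate, was higher by 0.48 ± 0.10, at 56.6 to 69.8 CPM in TRAP and 42.0 to 52.4 CPM in input, without overlap. Eif2s3x, the X-linked γ subunit gene, was lower by 0.30 on the log2 scale, but 94.1% of its stretches had copies elsewhere. Its call was lost without WT pool 3 (-0.26), KO pool 2 (-0.30) or KO pool 4 (-0.17). Eif2s2 and Eif2s3y were not called, nor were Eif2a and Eif2d, which act as single proteins outside the eIF2 complex.

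Of the 4 eIF2α kinase genes, only Eif2ak4 (GCN2, which senses amino acid shortage) was called. It was at 20.1, 27.1 and 18.6 CPM in WT TRAP and at 21.0, 26.4 and 23.3 CPM in KO TRAP. Its inputs were at 33.5, 40.6 and 33.8 CPM in WT and at 28.7, 34.3 and 32.8 CPM in KO. All TRAP libraries were below all inputs, and the ratio was -0.58 ± 0.14 (adjusted p = 0.0014 by edgeR). Eif2ak1 (HRI, activated by heme shortage) was at 0.09 ± 0.11, Eif2ak2 (PKR, activated by double-stranded RNA) at 0.09 ± 0.26 and Eif2ak3 (PERK, of the endoplasmic reticulum) at 0.18 ± 0.17.

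Among the genes that guide start codon choice, Eif1 was higher by 0.50 ± 0.09 (adjusted p = 2.7e-05 by edgeR), with 252 to 289 CPM in TRAP and 159 to 233 CPM in input and no overlap. Its relative Eif1b was higher by 0.22 ± 0.09. Eif1ad, which is named for an eIF1A-like domain and is not one of the scanning factors, was higher by 0.44 ± 0.14. Eif5, which triggers GTP hydrolysis by eIF2, was lower by 0.20 on the log2 scale (adjusted p = 0.033 by edgeR). Eif1a, Eif1ax and Eif5b were not called, though Eif5b (0.28 ± 0.13) was called at a ratio of 0.29 with the pool as a block and at 0.40 without WT pool 1. The calls of Eif1b and Eif5 were each lost under 7 of the 14 alternative settings, among them leaving out WT pool 2, WT pool 3, KO pool 2 or KO pool 4, and that of Eif1ad without WT pool 1 (0.31) or KO pool 4 (0.39).

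The cap-binding complex was divided. Of its 11 genes, the helicases Eif4a1 (0.43 ± 0.08), Eif4a3 (0.42 ± 0.11) and Eif4a2 (0.18 ± 0.07), their cofactors Eif4b (0.27 ± 0.07) and Eif4h (0.34 ± 0.06), and the scaffold Eif4g1 (0.26 ± 0.07) were higher. Eif4a3 is chiefly known as a part of the exon junction complex. The call of Eif4a2 was lost under 8 of the 14 alternative settings, with the smallest ratio of 0.11 without WT pool 3. Eif4g2 and Eif4e3 were lower, and Eif4g3, Eif4e and Eif4e2 were not called.

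Eif4g1 and Eif4g2 differed in direction. Eif4g1 was at 399, 388 and 334 CPM in WT TRAP and at 373, 366 and 378 CPM in KO TRAP, with 301 to 330 CPM in the inputs. Eif4g2 (DAP5, which lacks the eIF4E-binding part of the other eIF4G proteins) was at 497, 473 and 536 CPM in WT TRAP and at 555, 517 and 522 CPM in KO TRAP, with 595 to 709 CPM in the inputs. Neither gene had overlapping TRAP and input libraries, and the ratio of Eif4g2 was -0.33 ± 0.06 (adjusted p = 0.00017 by edgeR). Eif4g3 lay between them at 0.12 ± 0.07, and its ratio was above 0 in all 6 pools.

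Of the cap-binding proteins, Eif4e3, a divergent member of the family, was at 16.0, 26.2 and 21.3 CPM in WT TRAP and at 13.1, 26.1 and 19.3 CPM in KO TRAP. In the inputs it stayed between 29.7 and 33.6 CPM, above every TRAP library, and the ratio was -0.66 ± 0.16 (adjusted p = 0.0015 by edgeR). Eif4e (-0.03 ± 0.11) and Eif4e2 (-0.06 ± 0.11) showed no such difference, with 95% intervals inside a 1.5-fold change in either direction.

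The gene furthest from 0 was Eif4ebp2, the 4E-BP that predominates in brain. It was at 3.92, 4.01 and 3.73 CPM in WT TRAP and at 4.19, 4.40 and 7.34 CPM in KO TRAP. In input it was at 20.1, 13.8 and 14.6 CPM in WT and at 13.8, 6.90 and 12.7 CPM in KO. Each TRAP library was below its own input, although the highest TRAP value of KO exceeded the lowest input value. The ratio was -1.55 ± 0.26, or 2.92-fold lower (adjusted p = 2.1e-05 by edgeR), on 14 to 30 raw counts per TRAP library and 31 to 69 per input. Eif4ebp1, on fewer counts, was at 0.30 ± 0.42, with a 95% interval from -0.55 to 1.16 that includes a 2-fold change. Eif4enif1, which carries eIF4E into the nucleus, was at 0.07 ± 0.09.

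Elongation was led by a contrast within eEF1A. Eef1a2, the form of neurons and muscle, was at 2068, 2283 and 1998 CPM in WT TRAP and at 1776, 2123 and 2064 CPM in KO TRAP. Its inputs were at 1442, 1378 and 1375 CPM in WT and at 1318, 1352 and 1288 CPM in KO, all below the TRAP libraries. The ratio was 0.59 ± 0.06, a 1.51-fold difference (adjusted p = 4.4e-09 by edgeR). Eef1a1, the form of most other cells, was at 796 to 922 CPM in TRAP and 750 to 982 CPM in input, and its ratio was 0.00 ± 0.07 with a 95% interval from -0.14 to 0.14. Of the summed RPKM of both genes, Eef1a2 took 70.8% to 76.1% in TRAP and 62.5% to 69.4% in input. These shares can be too high, since 56.8% of Eef1a1 stretches and 0% of Eef1a2 stretches matched elsewhere and such reads were not counted. Which of both genes had the higher level in input is therefore uncertain.

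The coding sequences of both pairs differ at many positions. Of 75-base stretches of exon, 26.8% of Eif5a and 12.7% of Eif5a2 matched another place in mm9, against 56.8% of Eef1a1 and 0% of Eef1a2. The first 60 coding bases of each pair are shown from mm9, with the bases that differ from the partner in capitals, since the contrasts within eEF1A and eIF5A rest on reads being assigned to the right copy. Eef1a1 lies at chr9:78328402-78328461 and Eef1a2 at chr2:180890052-180890111, both on the minus strand.
Eef1a1: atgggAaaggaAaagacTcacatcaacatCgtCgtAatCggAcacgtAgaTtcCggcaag
Eef1a2: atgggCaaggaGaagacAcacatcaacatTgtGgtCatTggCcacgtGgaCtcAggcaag
They differ at 11 of 60 positions here, and over the aligned coding sequence 80.6% of bases are identical. Eif5a lies at chr11:69732758-69732817 on the minus strand and Eif5a2 at chr3:28680974-28681033 on the plus strand.
Eif5a: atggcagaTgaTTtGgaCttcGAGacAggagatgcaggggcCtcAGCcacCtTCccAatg
Eif5a2: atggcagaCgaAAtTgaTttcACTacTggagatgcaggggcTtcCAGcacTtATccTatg
These differ at 17 positions, and 73.2% of the aligned coding bases are identical.

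eIF5A helps the ribosome past stretches where it stalls. Eif5a was higher in TRAP by 0.35 ± 0.07 (adjusted p = 0.0004 by edgeR), at 324 to 404 CPM in TRAP and 253 to 341 CPM in input. Eif5a2 was lower (-0.38 ± 0.13, adjusted p = 0.017 by edgeR), at 26.7 to 40.3 CPM in TRAP and 35.6 to 49.2 CPM in input. The groups of both genes overlapped, and the call of Eif5a2 was lost without WT pool 1 (-0.29), KO pool 2 (-0.35) or KO pool 4 (-0.27). Of the summed RPKM of the pair, Eif5a2 took 3.41% to 4.54% in TRAP and 4.74% to 7.58% in input.

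Of the exchange factor subunits that recharge eEF1A, Eef1d was higher (0.29 ± 0.09, adjusted p = 0.01 by edgeR), at 91.0 to 97.2 CPM in TRAP and 68.2 to 90.8 CPM in input. Eef1b2 (-0.13 ± 0.10) and Eef1g (-0.15 ± 0.08) were not called. Eef2 was at 0.14 ± 0.08 and Eef2k, the calcium-dependent kinase that switches eEF2 off, at -0.18 ± 0.14, also without a call, and Eef2 was called with the pool as a block. Eefsec, the factor for selenocysteine, was higher by 0.58 ± 0.16 (adjusted p = 0.0051 by edgeR), at 23.5 to 48.2 CPM in TRAP and 20.9 to 27.1 CPM in input. Eif6, which acts in the maturation of the large subunit, was at 0.13 ± 0.14, and it was called at 0.34 without WT pool 1.

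Among the Argonaute genes only Eif2c3 was called, and it was lower in TRAP. It was at 54.0, 46.9 and 45.3 CPM in WT TRAP and at 66.5, 42.0 and 44.1 CPM in KO TRAP. In input it was at 71.9, 82.5 and 66.3 CPM in WT and at 67.7, 87.5 and 82.8 CPM in KO. The ratio was -0.62 ± 0.12 (adjusted p = 0.00011 by edgeR), and KO pool 2 alone had nearly equal TRAP and input values. The log2 ratio of Eif2c2, the most abundant of the 4 per length with 17.4 ± 1.03 RPKM in WT TRAP, was 0.04 ± 0.08. It was -0.07 ± 0.09 for Eif2c1 and -0.12 ± 0.24 for Eif2c4.

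**Figure D2:**
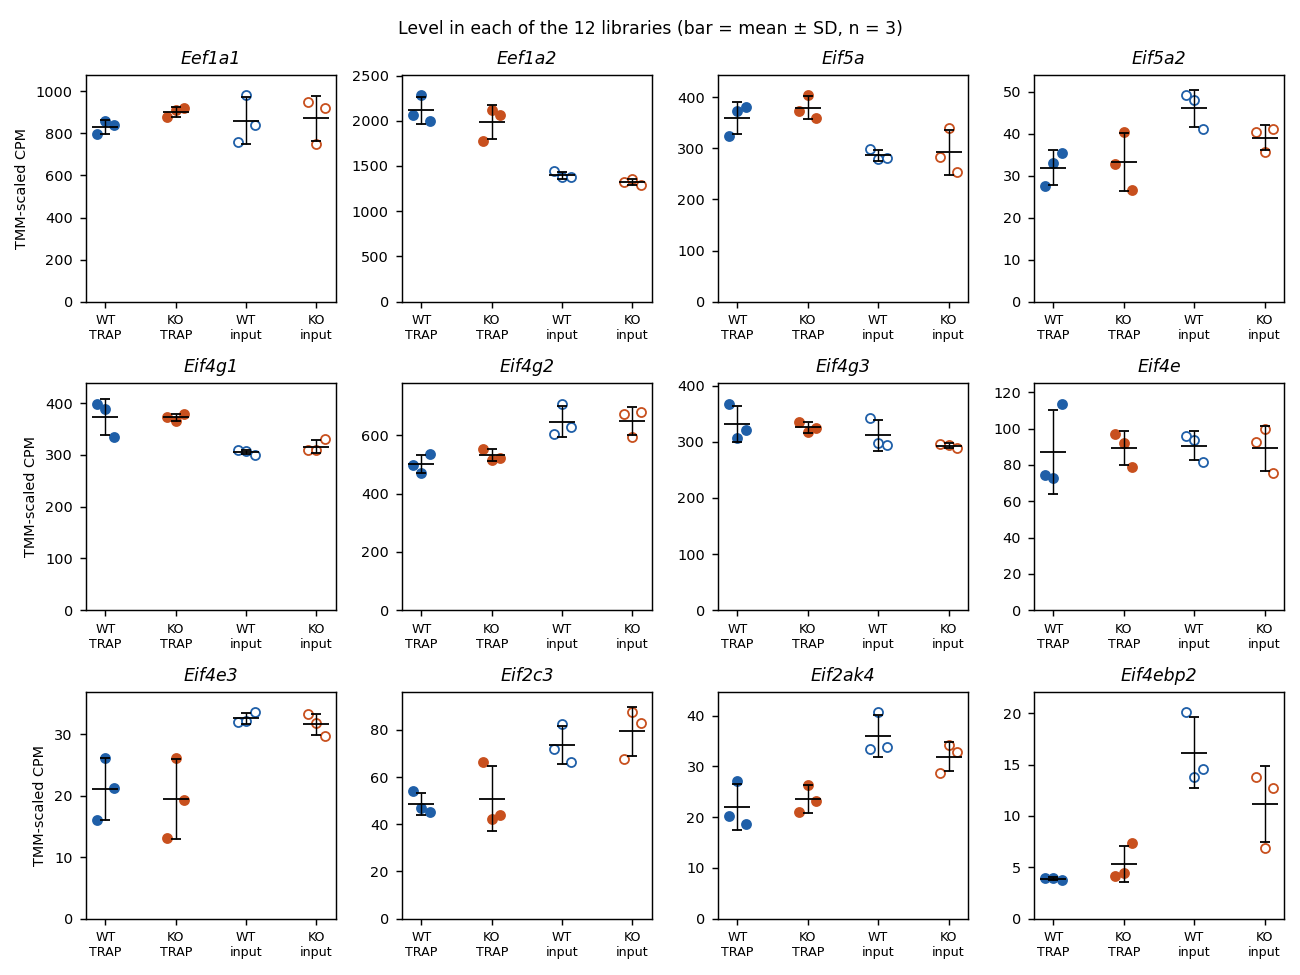
TMM-scaled CPM (y axis) of 12 genes in each library, by group (x axis), with mean ± SD over 3 libraries. Eef1a2 in TRAP lies between 1776 and 2283 CPM, above all inputs, while Eef1a1 overlaps between TRAP and input. Eif4e3, Eif2ak4 and Eif4g2 lie lower in every TRAP library than in every input.

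Related genes were also compared within each pool, as the difference of their log2 ratios of TRAP to input. This comparison was added after the values had been seen, and covered 29 pairs. In 14 pairs the difference had the same sign in all 6 pools, each with p = 0.03125 by an exact two-sided sign-flip test, which is the smallest p that 6 pools allow. Adjusted over the 29 pairs this is 0.0647, so no pair passed 0.05. Eef1a2 exceeded Eef1a1 by 0.58 (0.37 to 0.92 over the pools), and Eif4g1 exceeded Eif4g2 by 0.59 (0.38 to 0.92). Eif5a exceeded Eif5a2 by 0.74 (0.07 to 1.12), Eif4e2 exceeded Eif4e3 by 0.63 (0.43 to 1.21), and Eif2ak3 exceeded Eif2ak4 by 0.74 (0.47 to 1.11). Eif4a1 exceeded Eif4a2 by a smaller 0.25 (0.06 to 0.70). Eif4e and Eif4e2 differed by only 0.02, with pools from -0.58 to 0.65.

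**Figure D3:**
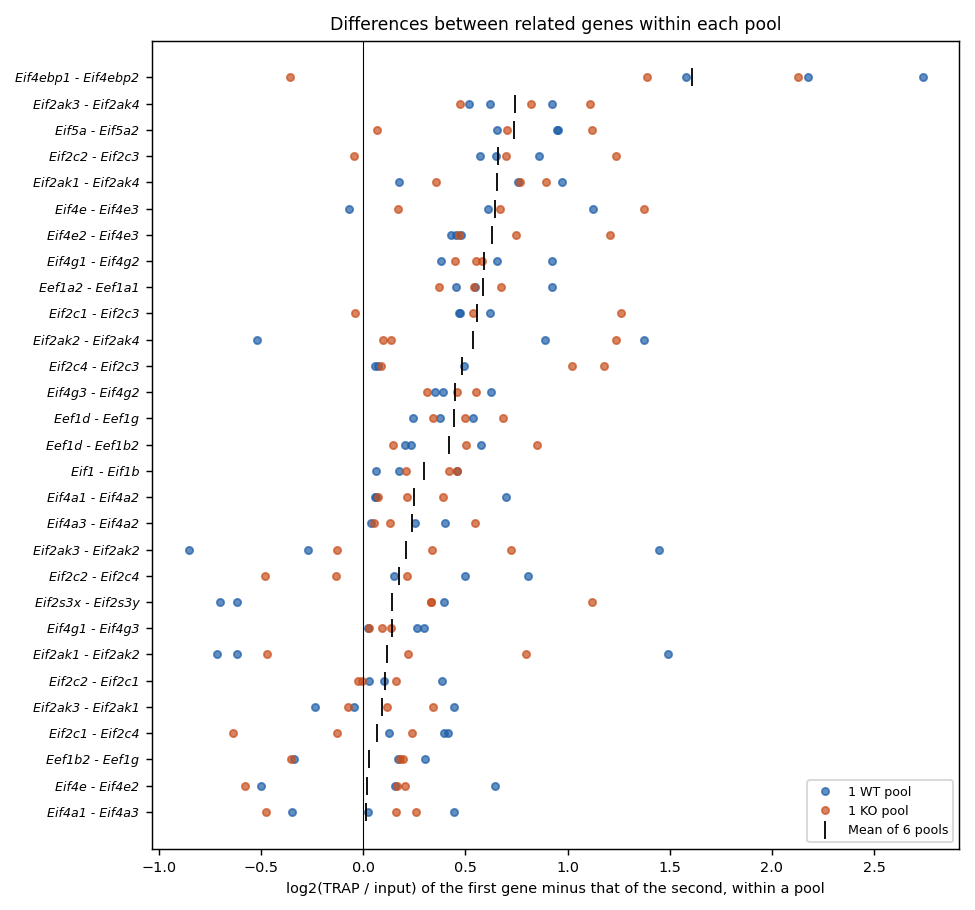
Difference of the log2 ratios of TRAP to input between 2 related genes (x axis) for 29 pairs (y axis), within each of 3 WT and 3 KO pools. The tick is the mean, and each pair is written so that it is positive. In 14 pairs all 6 pools lie on one side of 0, among them Eef1a2 against Eef1a1 at 0.58.

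The ratios were compared with transcript length as a description. Over 64 of the genes, Spearman's rho between the log2 ratio of TRAP to input and the annotated length 3′ of the stop codon was -0.46. With total exon length it was -0.42, and with coding length -0.10. Over 12456 protein-coding genes tested these were -0.20, -0.26 and -0.16, and the genes share libraries and are not independent. The median 3′ length was 459 bases for the 24 higher genes, 2129.5 bases for the 8 lower genes and 961 bases for those not called. Over all protein-coding genes tested the order was the same, at 648, 1376 and 931.5 bases. Eif2c3, with 12742 bases, and Eif5a2, with 4391, were among the lower genes, yet Eif2ak4 was lower with 174 bases.

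**Figure D4:**
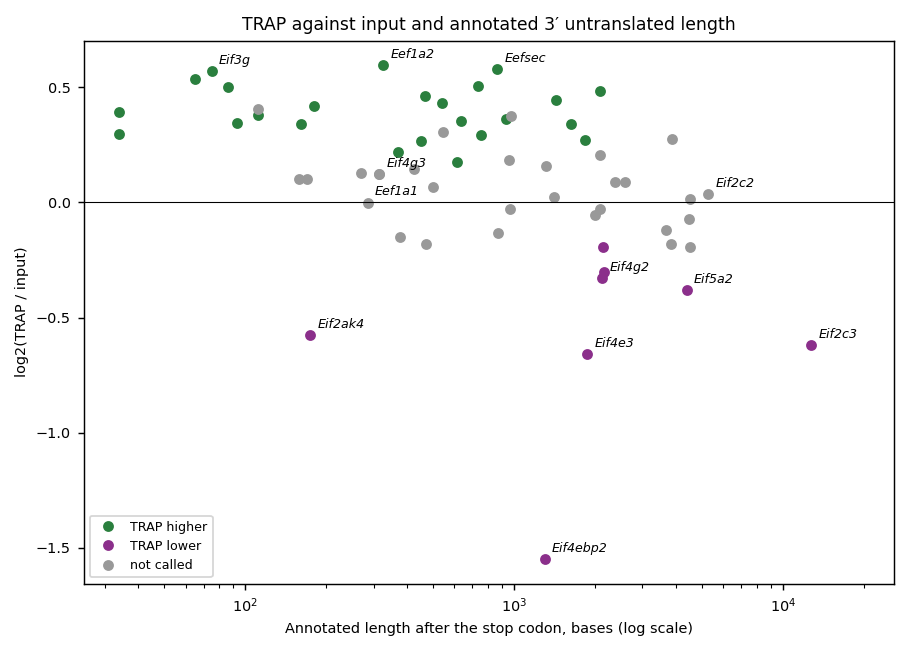
The log2 ratio of TRAP to input (y axis) against the annotated length after the stop codon in bases (x axis, log scale) for the 62 genes with such an annotation. Of the genes lower in TRAP, Eif2ak4 has the shortest at 174 bases and Eif2c3 the longest at 12742 bases.

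Taken within each genotype, 11 genes were higher and 6 lower in WT TRAP against WT input (24.9% of 12426 genes called, 11.8% higher and 13.1% lower), and 16 were higher and 5 lower in KO (29.1% of 12463 genes called, 13.2% higher and 15.9% lower). These comparisons share no libraries. The same direction was called in both for 11 genes, which are 64.7% of the WT calls and 52.4% of the KO calls, and none was called in opposite directions. Over the 12108 genes tested in both, the shared calls were 77.4% of the WT calls and 66.7% of the KO calls. Of the 65 genes, 54 (83.1%) had the same sign in both, against 81.6% of all genes. Eef1a2 was at 0.61 in WT and 0.58 in KO, Eif3c at 0.51 and 0.49, Eif4g2 at -0.36 and -0.30, and Eif4ebp2 at -2.03 and -1.06. Eif2s3y was called lower in KO (-0.99 ± 0.31, adjusted p = 0.0201 by edgeR) and was at 0.04 ± 0.36 in WT, and the KO call was lost without KO pool 3 (-0.95) or KO pool 4 (-0.89). These counts rested on few pools, as did those of all genes (1472 higher and 1624 lower in WT, 1648 and 1978 in KO). Without WT pool 3, 2 of the 65 genes were higher and 1 lower in WT, where 479 and 810 of 12554 genes were. Without WT pool 2 they were 5 and 1, where 778 and 1093 of 12486 were. In KO they were 8 and 2 without KO pool 2, where 1038 and 1661 of 12605 were. Without KO pool 4 they were 3 and 0, where 725 and 1257 of 12568 were.

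The study's main comparison asked what loss of FosB changed in vHPC-NAc neurons. In KO against WT TRAP, none of the 65 genes was called by edgeR, where 0.0682% of 11727 genes were, and 1 gene had an unadjusted p under 0.05 (6.05% of all genes), against 0 with DESeq2. Without KO TRAP library 2, where GABA neuron markers stood apart, again 0 genes were called. The median log2 difference was 0.00, with 32 genes above 0. The 95% interval of the KO to WT difference lay within a 2-fold change for 60 genes and within 1.5-fold for 53. The 5 left outside 2-fold (Eif2ak2, Eif2c4, Eif2s3y, Eif4ebp1 and Eif4ebp2) had the fewest counts, and their intervals include a change of more than 2-fold.

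The gene with the smallest p was Eif3a, at 427, 443 and 376 CPM in WT TRAP and at 373, 374 and 329 CPM in KO TRAP. All KO libraries were below all WT libraries, by 0.21 on the log2 scale (-0.21 ± 0.09, adjusted p = 0.80 by edgeR). Over the alternative settings its adjusted p ranged from 0.66 to 1.00. The next genes that were lower in KO TRAP were Eif5b (-0.20 ± 0.11), Eif3d (-0.23 ± 0.12) and Eif4h (-0.15 ± 0.09). On the higher side were Eef1a1 (0.12 ± 0.08), Eif3m (0.25 ± 0.17), Eef1e1 (0.32 ± 0.25) and Eef1g (0.12 ± 0.10). Libraries of KO and WT TRAP did not overlap for 5 of the 65 genes, 2 higher and 3 lower, where 11.9% of all genes did not, 5.74% higher and 6.12% lower. Eef1a1 was one of these, at 877 to 922 CPM in KO and 796 to 857 CPM in WT. With 3 libraries against 3 an exact permutation test cannot go below p = 0.10.

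In input, KO against WT again gave 0 called genes of the 65 by edgeR, where 0.0312% of 12816 were, and 3 had an unadjusted p under 0.05 by edgeR and by DESeq2 (2.89% of all genes by edgeR). These were Eif2c4, Eif6 and Eif2ak3, all lower in KO. Eif2c4 was at 18.3, 12.6 and 12.2 CPM in WT input and at 10.7, 6.23 and 6.99 CPM in KO input (-0.84 ± 0.31, adjusted p = 1.00 by edgeR). Eif6 was at 45.7, 33.3 and 33.2 CPM in WT and at 30.4, 25.8 and 25.6 CPM in KO (-0.45 ± 0.19). Eif2ak3 was at 18.3, 15.6 and 20.8 CPM in WT and at 12.8, 12.02 and 12.2 CPM in KO (-0.56 ± 0.25). In TRAP these 3 genes were at -0.38 ± 0.36, -0.01 ± 0.20 and -0.14 ± 0.26. Next by p in input were Eif2b2 (-0.35 ± 0.17) on the lower side and Eif2c2 (0.24 ± 0.12), Eef1g (0.19 ± 0.11), Eif2s3y (0.48 ± 0.31) and Eif2b5 (0.14 ± 0.15) on the higher side, none of them called.

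Input libraries did not overlap between genotypes for 10 genes, 1 higher and 9 lower in KO, where 8.38% of all genes did not overlap, 4.2% higher and 4.18% lower. Besides the 3 above, the lower ones were Eef1a2, Eef2k, Eif2b2, Eif4e2, Eif4ebp2 and Eif5a2, and Eif4g1 was higher. Without WT input 1 the counts were 2 higher and 10 lower, where 8.34% and 9.32% of all genes were. The log2 differences of these 10 genes ran from -0.84 for Eif2c4 to 0.05 for Eif4g1, and Eef1a2 (-0.08 ± 0.09) and Eif4g1 (0.05 ± 0.10) were the nearest to 0.

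Whether the genotype difference itself differed between TRAP and input was tested as an interaction, in which 0 of the 65 genes were called by edgeR (0.00757% of 13214 genes) and 1 had an unadjusted p under 0.05 by edgeR and by DESeq2 (2.71% of all genes by edgeR). This was Eif2s3y, lower in KO TRAP at 6.71, 5.62 and 7.34 CPM against 11.4, 7.54 and 9.32 CPM in WT, and at 10.7, 12.02 and 16.2 CPM in KO input against 7.86, 12.2 and 7.74 CPM in WT input. Its interaction was -1.01 ± 0.47, with an adjusted p of 1.00 by edgeR. For Eif4ebp2 the same value was 0.99 ± 0.51 (95% interval -0.07 to 2.04), with an adjusted p of 1.00 by edgeR, and its ratios of TRAP to input were -2.22 to -1.66 in the WT pools and -1.60 to -0.60 in the KO pools.

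**Figure D5:**
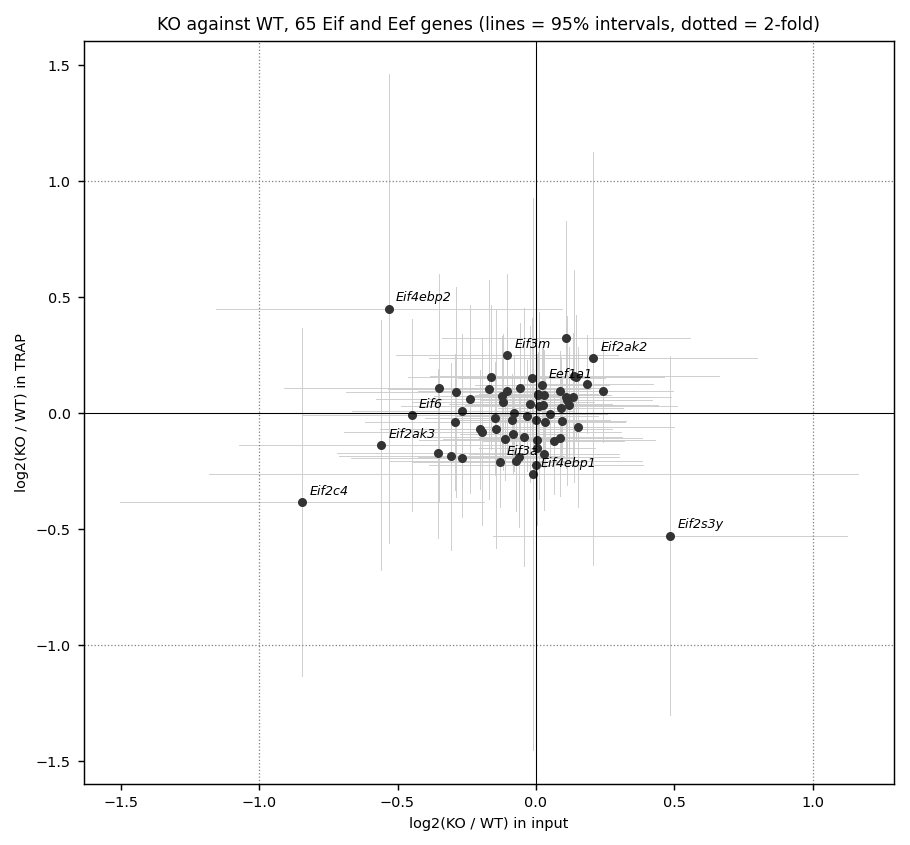
The log2 ratio of KO to WT in TRAP (y axis) against that in input (x axis) for the 65 genes, with 95% intervals as lines and dotted lines at 2-fold. The estimates lie within 2-fold in both, and those farthest from 0 are Eif2c4 at -0.84 in input and Eif2s3y at -0.53 in TRAP.

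Other genes of the pathway were counted from 3 lists, where 19.6% of all 13214 genes tested were higher and 22.5% lower in TRAP over both genotypes. Of 18 genes of upstream signalling (mTOR and its regulators, S6 kinases, Mnk and Akt kinases and the stress response genes Atf4, Ppp1r15a and Ppp1r15b), 2 were higher and 8 lower in TRAP, with a median log2 ratio of -0.17. Of 17 other translation proteins, among them poly(A)-binding protein, its partners and the release factors, 6 were higher and 3 lower, with a median of 0.19. Of 9 mitochondrial translation factors, 4 were higher and none lower, with a median of 0.37. None of these 44 genes was called between KO and WT in TRAP, where 0.0682% of 11727 genes were.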

How the data were processed

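The authors deposited raw counts per gene for each of the 12 libraries, made by TopHat alignment to the mm9 genome and by HTSeq-count with the Gencode vM1 gene models, tool versions and strand setting not given in the sources used here. Reads on no feature (20.6% to 27.1%) or on several (2.11% to 2.56%) were left out of library sizes. Libraries were assigned by their labels, and those not labelled input were read as TRAP. The test was run with edgeR 4.0.16 under R 4.3.3 (default expression filter by group, TMM, robust dispersion, quasi-likelihood test, Benjamini-Hochberg adjustment over all genes tested, after the same steps had been tested on simulated data), and with DESeq2 1.42.0 as an alternative, beside other scalings, filters, a pool block and leaving out each pool. SE is the log2 fold change divided by the square root of F. RPKM is TMM-scaled CPM per kilobase of exon union. Single genes were compared by exact two-sided permutation or sign-flip tests of log2(CPM + 0.5). Stretches of 75 bases, every 25, were aligned with minimap2 2.31. Intervals and the limit of 3 counts cover counting and the spread between pools only. The members, gene lists and tests were chosen with earlier results of these data known. Genes described singly are members of related sets, the 6 largest calls in each direction in TRAP against input, and the 4 smallest p in each direction between genotypes. Genes named outside that rule were chosen after their values were seen.

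The TRAP and input libraries of a number come from the same pool, and their deviations from the group means correlated at 0.058 to 0.106 over genes.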

Additional observations from a re-analysis of the deposited data

How the results depend on the processing

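Of the 32 genes called between TRAP and input over both genotypes, 22 were called under all 14 alternative settings, and 10 lost the call under at least 1 of them. Leaving out 1 pool at a time gave 20 to 27 higher and 5 to 7 lower genes over both genotypes, 2 to 12 higher and 1 to 4 lower in WT, and 3 to 12 higher and 0 to 4 lower in KO. These fits hold fewer libraries. The other settings kept these counts within 1.5 times. With the pool as a replicate block, 27 genes were higher and 8 lower over both genotypes (12 and 6 in WT, 17 and 5 in KO), with Eef2, Eif2b1 and Eif5b added and no call lost over both genotypes. WT and KO pools of the same number hold different mice (correlation -0.070 to 0.003), and only numbers 2 and 3 occur in both genotypes. A block on that number changed no count of calls between genotypes. In input it did change which genes had an unadjusted p under 0.05 by edgeR. These were then Eef1b2, Eif5b and Eef1g, all higher in KO, and no longer Eif2c4, Eif6 and Eif2ak3, all lower in KO. Between KO and WT, 0 genes were called in TRAP, in input and in the interaction under every setting run. The 95% interval between genotypes in TRAP reached past a 2-fold change for the 5 genes with the fewest counts, and the part of depth in this was not tested.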

Other observations

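Several related annotated sequences lay outside the rule. The pseudogene Eif5al3-ps, a copy of Eif5a, averaged 10.6 counts and had 1 to 35 counts per library, with the highest value in WT TRAP library 1. The other annotated pseudogenes of the family averaged at most 3 counts.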
